A study of Mus musculus with 8 samples.

Results

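The genes described here are 6 members of the small leucine-rich proteoglycan (SLRP) family: Dcn (decorin), Bgn (biglycan), Lum (lumican), Fmod (fibromodulin), Prelp and Ogn (osteoglycin, also called mimecan). Every probe set annotated to 1 of these symbols was taken, which gave 15 of the 22626 probe sets on each array and 6 of 12393 genes. RNA came from the left ventricle of male mice of 2 to 4 months, of the strain MRL/MpJ, whose ear punches are known to close, or of C57BL/6, a common inbred strain. Hearts of both strains were collected 3, 30 or 60 days after LAD ligation, a surgical block of the coronary artery that feeds the front of the left ventricle and so infarcts it. Controls of both strains had no surgery at all, so no sham group was compared. There were 8 groups with 1 Affymetrix array each and therefore no replicates, and the labels leave unsaid whether RNA was pooled over animals.

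SLRPs are secreted proteins whose horseshoe-shaped leucine-rich repeat domain binds collagen and sets the diameter and spacing of collagen fibrils. Most carry glycosaminoglycan chains, and decorin and biglycan also bind growth factors such as TGF-beta. In the heart they are made mainly by fibroblasts and other stromal cells and are laid down in the scar that replaces infarcted muscle. In a piece of whole ventricle, more cells of a type and more RNA per cell cannot be told apart.

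The signal is a probe set's brightness on a linear scale. Trimmed means of 247 to 248 over the 8 arrays show that the arrays had been scaled to each other. The C57BL/6 day 30 array stood apart: its r with the other arrays over 8195 genes was 0.844 to 0.877, against 0.884 to 0.948 among the other 7. Ventricular muscle markers were bright in every array: the summed signal of 9 markers was 165049 to 348131 in ligated hearts, with the highest sum in C57BL/6 day 30, and 172003 and 190444 in untreated hearts. Values below come from the brightest probe set of each gene unless another is named. Differences are log2 of the signal plus an offset of 28.6, and a gene was called at an adjusted p under 0.05 in limma, with adjustment over all 8195 genes. All 6 genes passed the filter on dim genes, and 5 of them were at or above its signal of 121 in all 8 arrays; Fmod was above it in 7.

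All 6 genes had a higher signal in each ligated array than in the untreated array of the same strain, on all 3 days and in both strains. That held for 10.3% of all 8195 genes. For 5 of the 6 genes every ligated array also lay above both untreated arrays, a pattern with a background of 6.71%; the exception was Lum. None of the 6 passed limma's test over all genes in any comparison, so the values that follow are differences that did not reach the threshold, and the test's own interval is given with them.

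Dcn and Bgn are the chondroitin or dermatan sulfate members. Decorin is the main SLRP of loose connective tissue and binds TGF-beta and collagen. In MRL/MpJ hearts the Dcn signal was 3459 untreated, 9212 on day 3, 6475 on day 30 and 8064.5 on day 60. In C57BL/6 hearts it was 3988 untreated, 6444 on day 3, 7099 on day 30 and 6195 on day 60. The 6 ligated arrays and the 2 untreated arrays did not overlap, and MRL/MpJ day 3 was the highest array. Within the ligated arrays Dcn varied little, from 6195 to 9212.

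Biglycan, the nearest relative of decorin, is known as a matrix protein and, once released, as a danger signal read by Toll-like receptors. In MRL/MpJ hearts the Bgn signal was 2142 untreated, 8602 on day 3, 4475.5 on day 30 and 8195 on day 60. In C57BL/6 hearts it was 2818.5 untreated, 3499 on day 3, 7596 on day 30 and 6931 on day 60. All ligated arrays lay above both untreated arrays, but the C57BL/6 day 3 array lay only just above them: its value with the offset was 1.24 times that of untreated C57BL/6, where MRL/MpJ day 3 stood at 3.98 times its own. On probe set 1448323_a_at these were 1.40 and 5.63 times, and on 1437889_x_at 2.75 and 10.8 times.

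Lumican, fibromodulin and PRELP form a second branch of the family. Lumican and fibromodulin bind fibrillar collagen and can carry keratan sulfate, and fibromodulin is abundant in tendon and cartilage. In MRL/MpJ hearts the Lum signal was 1298 untreated, 5193 on day 3, 2896 on day 30 and 3319 on day 60. In C57BL/6 hearts it was 787 untreated, 1909.6 on day 3, 1134 on day 30 and 1822 on day 60. Lum was highest on day 3 in both strains, and it was the only member whose groups overlapped, because C57BL/6 day 30 lay below untreated MRL/MpJ.

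With the strains averaged, Fmod had the largest difference from untreated of the 6 genes on each day on the brightest probe sets, though in C57BL/6 on day 3 Lum stood at 2.38 times untreated and Fmod at 1.66 times. The ranking depended on the probe set: Bgn 1437889_x_at gave log2 differences of 2.45, 2.66 and 3.48 on days 3, 30 and 60. The 6 Fmod probe sets gave 0.54 to 2.30, 1.30 to 2.66 and 1.38 to 3.51. In MRL/MpJ hearts the Fmod signal on its brightest probe set was 60.2 untreated, 606 on day 3, 212 on day 30 and 461 on day 60. In C57BL/6 hearts it was 135 untreated, 243 on day 3, 758 on day 30 and 751 on day 60. On this probe set day 3 was the highest of the MRL/MpJ arrays and days 30 and 60 the highest of the C57BL/6 arrays, but on the other 5 Fmod probe sets MRL/MpJ day 60 lay above day 3. The untreated MRL/MpJ signal is below the filter, where the offset compresses differences.

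PRELP has a basic, heparin-binding end and links collagen to basement membranes. In MRL/MpJ hearts the Prelp signal was 338 untreated, 1088 on day 3, 658 on day 30 and 1497 on day 60. In C57BL/6 hearts it was 528 untreated, 744 on day 3, 1487 on day 30 and 1101 on day 60. C57BL/6 day 3 stood at 1.39 times its own strain's untreated value with the offset, and C57BL/6 day 30 was among the highest arrays.

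Osteoglycin belongs to a further branch, is found in many connective tissues and also takes part in collagen fibril assembly. In MRL/MpJ hearts the Ogn signal was 948 untreated, 1976 on day 3, 1087 on day 30 and 1413 on day 60. In C57BL/6 hearts it was 779 untreated, 1227 on day 3, 1507 on day 30 and 1489 on day 60. Ogn had the smallest difference from untreated with the strains and days averaged, though not in C57BL/6 on any single day, and MRL/MpJ day 30 stood only 1.14 times above its untreated heart with the offset, a change above that of 73% of the 8195 genes in that pair.

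**Figure D1:**
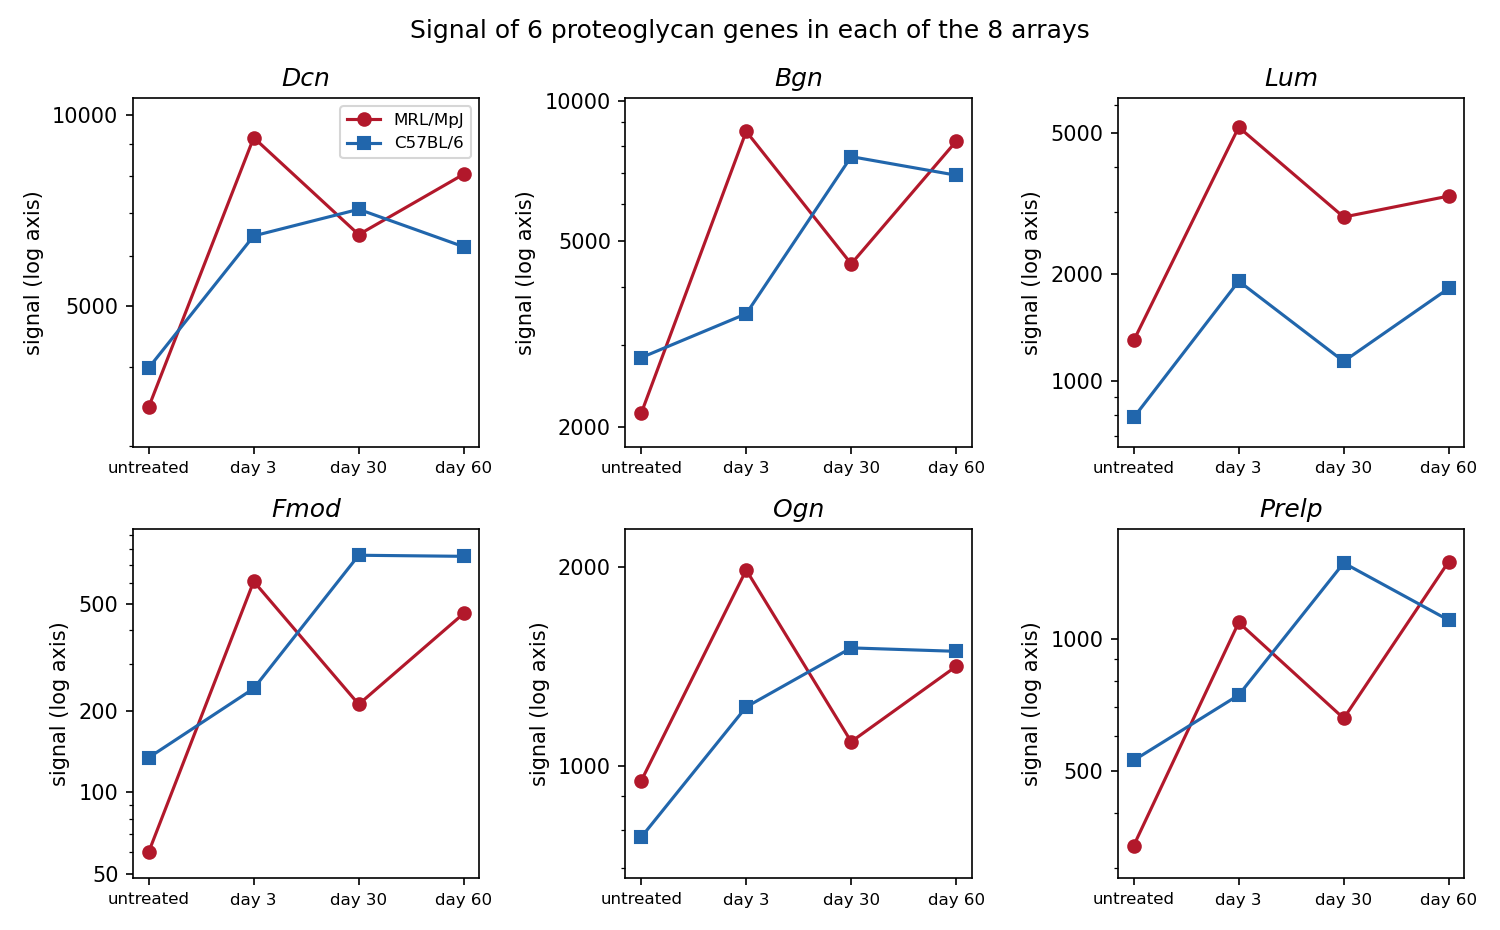
Signal (vertical log axis, a different range in each panel) of the brightest probe set of each gene, by time point (horizontal axis), with MRL/MpJ as red circles and C57BL/6 as blue squares, 1 array per point. All ligated points lie above the untreated point of their own strain, and MRL/MpJ lies above C57BL/6 at every time point for Lum alone.

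Ligated against untreated hearts asks what the ligated ventricle expresses at any of the 3 times, with the days averaged and strain as a covariate (6 arrays against 2). The log2 difference from untreated was 2.00 for Fmod (SE 0.48, 95% interval 0.88 to 3.12), 1.33 for Bgn (SE 0.37, 0.47 to 2.19), 1.25 for Prelp (SE 0.34, 0.45 to 2.05) and 1.23 for Lum (SE 0.22, 0.72 to 1.75). Dcn stood at 0.94 (SE 0.22, 0.43 to 1.46) and Ogn at 0.71 (SE 0.25, 0.13 to 1.30). All 6 lay above 0, beside 46.8% of all genes, with a median of 1.24 beside -0.03 over all genes. Limma called 0 of the 6, where 0.195% of genes were called, and Lum came nearest with an adjusted p of 0.0847; the others had adjusted p = 0.162 for Dcn, 0.177 for Fmod, 0.261 for Prelp, 0.264 for Bgn and 0.381 for Ogn. At an unadjusted p under 0.05 all 6 were higher, beside 6.27% of all genes. Leaving out the C57BL/6 day 30 array gave log2 values of 0.58 to 1.73 for the 6 genes; without either untreated array they lay between 0.60 and 2.25, or between 0.72 and 1.75, by strain left out.

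Day 3 is the early inflammatory phase, before a mature scar has formed. With 2 arrays against 2, the log2 difference from untreated was 1.79 for Fmod (SE 0.59), 1.61 for Lum (SE 0.27), 1.15 for Bgn (SE 0.45), 1.05 for Dcn (SE 0.27), 1.04 for Prelp (SE 0.42) and 0.84 for Ogn (SE 0.31). Limma called 0 of 8195 genes (a background of 0%), with adjusted p = 0.145 for Lum and 0.426 to 0.755 for the other 5. At an unadjusted p under 0.05 all 6 were higher, beside 4.54% of genes. The 2 strains differed in size on day 3. On the brightest probe sets the log2 change in MRL/MpJ was 2.84 for Fmod, 1.99 for Bgn and 1.61 for Prelp, while in C57BL/6 it was 0.73, 0.31 and 0.47 for the same genes. For Lum the changes were 1.98 in MRL/MpJ and 1.25 in C57BL/6, for Dcn 1.41 and 0.69, and for Ogn 1.04 and 0.64. Without the MRL/MpJ day 3 array the day 3 difference stood at 0.63 for Fmod, 0.35 for Bgn and 0.56 for Prelp, and without the C57BL/6 day 3 array at 2.94, 1.95 and 1.53 for the same genes.

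On day 30, when scar tissue has replaced the infarct, Fmod stood at a log2 of 1.85 (SE 0.59, 2 arrays against 2), Bgn at 1.24 (SE 0.45), Prelp at 1.18 (SE 0.42), Dcn at 0.86 (SE 0.27), Lum at 0.83 (SE 0.27) and Ogn at 0.56 (SE 0.31). Limma called 0 of the 6, with a background of 0.0122% (1 gene) and adjusted p of 0.343 to 0.503; at an unadjusted p under 0.05 there were 5 of 6, beside 5.77% of genes. Without the C57BL/6 day 30 array, the one that stood apart, the values were 1.05 for Fmod, 0.67 for Bgn, 0.54 for Prelp, 0.68 for Dcn, 0.99 for Lum and 0.18 for Ogn. Lum was the only member whose value was larger without that array. The same array had the highest sum of the 9 muscle markers and of the 6 atrial markers (52638.6, against 4919.5 in untreated C57BL/6). Nppa gave 41056 of that atrial sum, and no other atrial marker was highest in this array. The part of these markers in the members' values was not tested.

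On day 60 Fmod stood at a log2 of 2.36 (SE 0.59, 2 arrays against 2), Bgn at 1.61 (SE 0.45), Prelp at 1.54 (SE 0.42), Lum at 1.26 (SE 0.27), Dcn at 0.92 (SE 0.27) and Ogn at 0.74 (SE 0.31). The median was 1.40, beside -0.06 over all genes. Limma called 0 of the 6, with a background of 0.0366% (3 genes) and adjusted p of 0.157 for Lum, 0.210 for Fmod and 0.264 to 0.464 for the other 4. At an unadjusted p under 0.05 all 6 were higher, beside 6.16% of genes. On the brightest probe sets the strains were closest for Fmod, with log2 changes of 2.46 in MRL/MpJ and 2.26 in C57BL/6, and for Lum, with 1.34 and 1.18. Prelp showed the widest gap there, with 2.06 in MRL/MpJ and 1.02 in C57BL/6. This order depended on the probe set. With the offset, Fmod 1456084_x_at stood at 7.67 times untreated in MRL/MpJ and 16.9 times in C57BL/6. Prelp 1416322_at stood at 8.11 and 7.59 times.

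**Figure D2:**
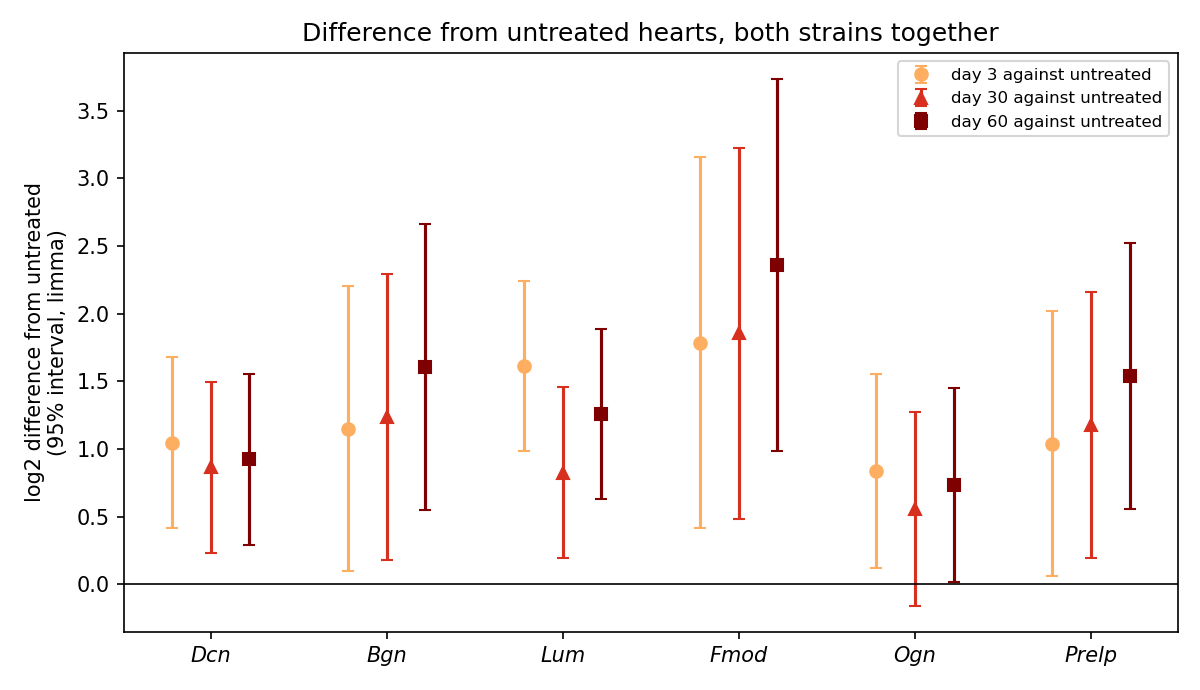
Log2 difference from untreated hearts (vertical axis) of each gene on days 3, 30 and 60, with limma's 95% interval as bars (2 arrays against 2 per point). The interval of Ogn on day 30 includes 0 and the other 17 lie above 0 before adjustment. On the brightest probe sets shown, Fmod is the highest on each day.

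Days 30 and 60 against day 3 asks whether the early level was kept (4 arrays against 2). Lum lay lower late than early, by a log2 of -0.57 (SE 0.24), and Ogn and Dcn stood at -0.19 and -0.15. Prelp, Fmod and Bgn stood at 0.32, 0.32 and 0.27. Limma called 0 of 8195 genes (a background of 0%), and at an unadjusted p under 0.05 Lum alone of the 6 was lower, beside 3.48% of genes. In 5 of the 6 genes the step from untreated to the lowest ligated day exceeded the half-width of limma's 95% interval between time points. With the ligated days ordered by value, no gene had so large a step between days of neighbouring rank. From the highest to the lowest of the 3 days, Lum alone passed that half-width. Its day 3 value lay above day 30 by a log2 of 0.79 against 0.63, before any adjustment over genes.

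On the brightest probe sets of Fmod, Bgn and Ogn both late arrays lay below day 3 in MRL/MpJ and above it in C57BL/6. The exact pattern was not shared by their other probe sets: it held on 1 of 6 for Fmod, 1 of 3 for Bgn and 1 of 2 for Ogn. The late minus day 3 change was still lower in MRL/MpJ than in C57BL/6 on every probe set of these genes. In the fit of all probe sets this log2 difference ran from -1.40 to -2.53 on Fmod and from -1.06 to -1.61 on Bgn. On Ogn it was -0.47 and -0.94, and no probe set of these genes was called. On the other 5 Fmod and the other 2 Bgn probe sets MRL/MpJ day 60 lay above day 3, and on the other Ogn probe set C57BL/6 day 30 lay below day 3. For Fmod the log2 differences from day 3 were -1.40 and -0.37 on days 30 and 60 in MRL/MpJ and 1.53 and 1.52 in C57BL/6. For Bgn they were -0.94 and -0.07 in MRL/MpJ and 1.11 and 0.98 in C57BL/6. This pattern had a background of 11.4% of genes. Limma's test of the difference between the strains, added after these values were seen, gave a log2 of -2.41 for Fmod (SE 0.64, adjusted p = 0.271), -1.55 for Bgn (SE 0.63, adjusted p = 0.796) and -0.94 for Ogn (SE 0.60, adjusted p = 0.999), with a background of 0.0366% called. Lum, Dcn and Prelp fell outside this pattern, with -0.34 (SE 0.61), -0.39 (SE 0.61) and -0.89 (SE 0.68) for the same difference. The second Prelp probe set, 1416322_at, gave -2.46 (SE 0.78) in the fit of all probe sets.

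MRL/MpJ against C57BL/6 asks which genes differ between the strains with the time points averaged (4 arrays against 4, time point as covariate). The log2 difference of Lum, MRL/MpJ minus C57BL/6, was 1.08 (SE 0.19, 95% interval 0.63 to 1.53), higher in 4 of 4 pairs of arrays, a pattern with a background of 8.53%. By pair the log2 difference was 0.70 untreated, 1.43 on day 3, 1.33 on day 30 and 0.86 on day 60. Limma gave Lum an adjusted p of 0.110 and an unadjusted p of 0.000576, with 0.22% of genes called and 3.71% higher at an unadjusted p under 0.05; Lum stood 42nd of 8195 genes by p. Lum has 1 probe set on this array, so no second probe set could be set beside it.

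For the other 5 genes the interval of the strain difference included 0. The log2 values were 0.14 for Dcn (95% interval -0.31 to 0.59), 0.10 for Bgn (-0.65 to 0.84), 0.10 for Ogn (-0.40 to 0.61), -0.20 for Prelp (-0.89 to 0.50) and -0.51 for Fmod (-1.48 to 0.46), with limma's adjusted p of 0.793 to 0.963. The pairs differed from each other: on day 3 the difference was above 0 for all 6 genes, at 0.51 to 1.43, beside 53.2% of genes above 0 in that pair. On day 30, 5 of the 6 were lower in MRL/MpJ, by -0.13 for Dcn to -1.71 for Fmod, with Lum alone higher. This pair includes the C57BL/6 array that stood apart, and on the second Ogn probe set MRL/MpJ was higher, by a log2 of 0.30. The share of genes higher in MRL/MpJ in the day 30 pair was 44.2%. Limma's test of whether the ligated minus untreated difference departs between the strains gave 0 calls (a background of 0%) and adjusted p above 0.999 for all 6, with log2 values from -0.23 for Ogn to 0.65 for Bgn; the 95% interval for Fmod ran from -1.93 to 2.92.

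**Figure D3:**
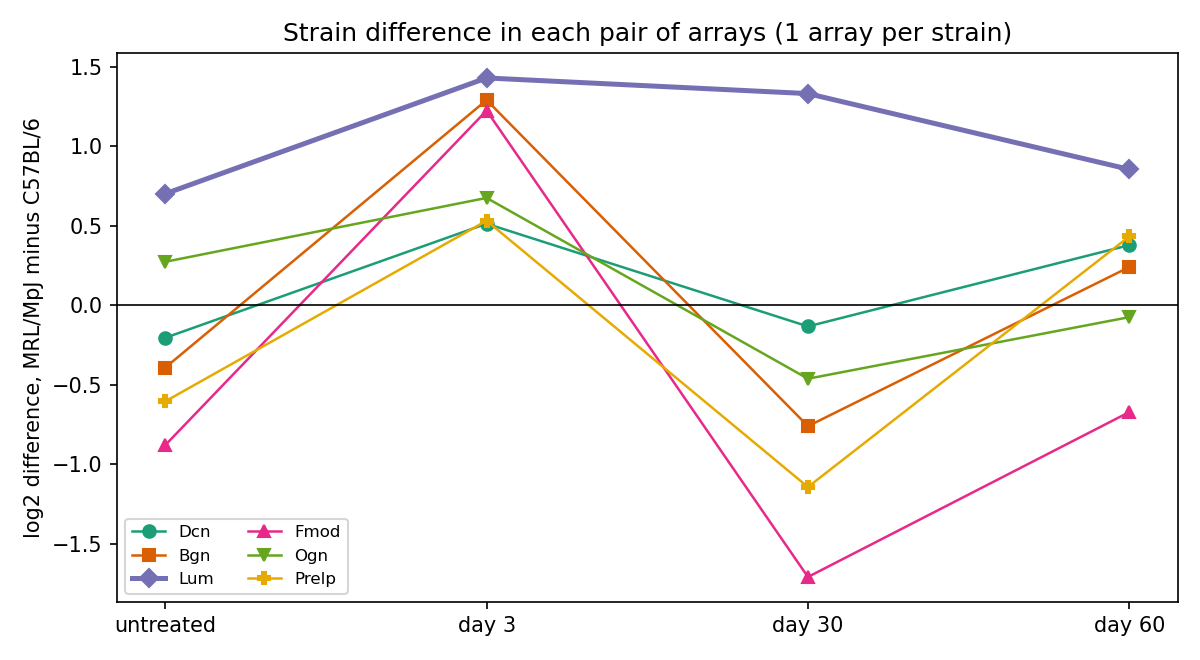
Log2 difference in signal, MRL/MpJ minus C57BL/6 (vertical axis), in the pair of arrays at each time point (horizontal axis), 1 line per gene. Lum stays above 0 in all 4 pairs, and the other 5 genes lie above 0 on day 3 and below 0 on day 30.

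The size of the difference from untreated depended on the probe set, with a log2 span of 1.68 over the Fmod probe sets and 1.53 over those of Bgn. In a fit of all 12183 probe sets with 1 symbol that passed the filter, the 3 Bgn probe sets gave log2 values for ligated against untreated of 1.33 (1416405_at, the brightest), 2.02 (1448323_a_at) and 2.86 (1437889_x_at, SE 0.35). The last was called, with an adjusted p of 0.0404 in limma and a background of 16 probe sets, and it was the only one of the 15. Its signal was 462 untreated, 5258 on day 3, 4023 on day 30 and 7819.9 on day 60 in MRL/MpJ hearts, and 878 untreated, 2469 on day 3, 4361 on day 30 and 7019.9 on day 60 in C57BL/6 hearts. An x in a probe set's name, which every Fmod probe set but 1415939_at also has, marks probes that may also bind other transcripts. Whether they did so here was not tested.

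Fmod has 6 probe sets, with log2 values of 1.14 to 2.82, Prelp has 2, with 1.25 and 2.12, and Ogn has 2, with 0.71 and 0.73. All 15 probe sets had a positive difference. In 14 of the 15 each ligated array lay above both untreated arrays or, for Lum, above its own strain's. The exception was 1438966_x_at of Fmod, where C57BL/6 day 3 had a signal of 22.5 and its untreated array 32.1. Over genes, by the brightest probe set, these 2 patterns had backgrounds of 6.71% and 10.3%. Their share over all probe sets was not counted, and probe sets of 1 gene are not independent of each other. Across the 8 arrays probe sets of 1 gene followed each other with r of at least 0.894 for Fmod, 0.929 for Bgn and 0.942 for Prelp, and 0.787 for Ogn. The Ogn probe sets disagreed on C57BL/6 day 30, with 1.90 times untreated on 1419663_at and 1.09 times on 1419662_at.

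**Figure D4:**
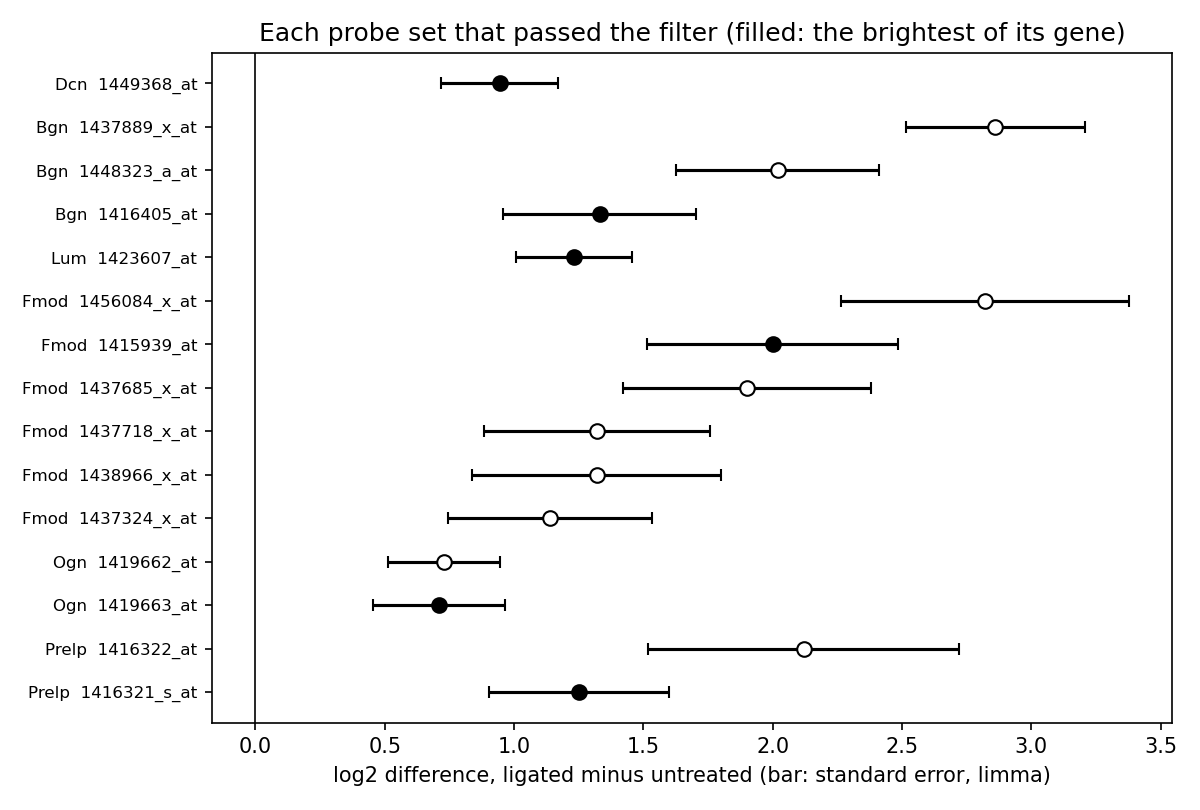
Log2 difference of ligated from untreated hearts (horizontal axis, bars are limma's standard error) for each of the 15 probe sets, grouped by gene, with the brightest probe set of each gene filled. All 15 lie above 0, and the Bgn probe sets run from 1.33 to 2.86.

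The 6 genes did not all follow 1 profile. Across the 8 arrays, on the log2 scale and as a description of arrays that share strain and time point, Bgn, Fmod and Prelp followed each other most closely, with r of 0.946 for Bgn and Fmod, 0.948 for Bgn and Prelp and 0.943 for Fmod and Prelp. Lum stood furthest from them, with r of 0.398 to Fmod, 0.408 to Prelp and 0.592 to Bgn. Dcn lay between, with r of 0.902 to Bgn and 0.765 to Lum. The non-member genes most like each were Ltbp2 for Bgn (r 0.988), a TGF-beta-binding matrix protein gene, Mrc1 for Prelp (0.987), a macrophage receptor gene, C1qa for Dcn (0.986), a complement gene, Ppt1 for Ogn (0.979), Fzd2 for Lum (0.968), a Wnt receptor gene, and Ccl8 for Fmod (0.967), a chemokine gene. The genes most like the mean of the 6 were Ccdc80 (0.986), Tgfb3 (0.977) and Sfrp2 (0.977).

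Some of these genes are chromosomal neighbours. Lum follows Dcn on chromosome 10, with Kera and Epyc, more SLRP genes, next to them. Fmod follows Prelp on chromosome 1, and Ogn follows Omd and Aspn on chromosome 13, while Bgn is on X. Neighbours were not always alike: r was 0.943 for Fmod and Prelp and 0.765 for Dcn and Lum. The promoters of the 3 genes that followed each other most closely are shown, from RefSeq on GRCm38.p6, 250 bases before to 50 after the start. Capitals mark matches, on either strand, to the motifs searched: CAGAC, the core bound by SMAD proteins of the TGF-beta pathway, TGANTCA, the AP-1 site, TATAAA, the TATA box, CCAAT, the core of the NF-Y site, and GGGCGG, the core of the GC box.
Fmod (chr1:134037004-134037303, plus strand): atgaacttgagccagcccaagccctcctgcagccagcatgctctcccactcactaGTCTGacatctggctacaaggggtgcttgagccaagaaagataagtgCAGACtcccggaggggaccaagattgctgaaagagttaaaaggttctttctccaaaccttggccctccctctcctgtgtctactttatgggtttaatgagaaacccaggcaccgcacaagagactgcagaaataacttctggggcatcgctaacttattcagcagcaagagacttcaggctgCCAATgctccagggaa
Prelp (chr1:133921352-133921651, minus strand): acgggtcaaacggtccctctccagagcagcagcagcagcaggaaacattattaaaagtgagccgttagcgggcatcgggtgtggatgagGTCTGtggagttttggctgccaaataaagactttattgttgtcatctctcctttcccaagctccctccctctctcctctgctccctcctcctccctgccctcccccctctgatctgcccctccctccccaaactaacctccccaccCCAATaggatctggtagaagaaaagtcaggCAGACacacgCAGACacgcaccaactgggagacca
Bgn (chrX:73483351-73483650, plus strand): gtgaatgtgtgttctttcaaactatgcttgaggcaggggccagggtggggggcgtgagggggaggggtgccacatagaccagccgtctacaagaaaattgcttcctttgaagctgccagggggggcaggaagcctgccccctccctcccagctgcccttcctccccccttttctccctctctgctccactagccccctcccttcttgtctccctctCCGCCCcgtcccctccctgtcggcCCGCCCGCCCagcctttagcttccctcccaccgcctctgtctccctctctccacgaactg
CAGAC matched 2 times in Fmod, 3 times in Prelp and 0 times in Bgn, and 49.6% of the 32851 promoter windows hold it. CCAAT matched once each in Fmod and Prelp, against 37.4% of windows, and GGGCGG 3 times in Bgn, with 2 of the matches overlapping, against 35.7%. TGANTCA (7.81% of windows) and TATAAA (13.6%) matched in none of the 3. A match in these windows was not set against any binding data.

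Collagens that SLRPs bind were higher in ligated hearts too. Of 11 listed, 10 passed the filter and all 10 lay above untreated in the comparison of ligated with untreated hearts, with a median log2 of 1.35 beside -0.03 over all genes. Limma called 3, all risen, where 0.195% of all genes were called. They were Col1a1 (log2 2.37, SE 0.27), Col1a2 (2.36, SE 0.26) and Col3a1 (1.87, SE 0.21), each with an adjusted p of 0.0337 in limma. For days 30 and 60 against day 3 the median was -0.57 over the 10 collagens, with 9 below 0, and 0.06 over the 6 members, with 3 below 0, beside -0.05 over all genes; 0 genes were called in limma and the difference between the lists was not tested. For the strain difference in the late minus day 3 change, MRL/MpJ minus C57BL/6, 0 of the 10 collagens lay above 0. Their median was -0.71, beside -0.07 over all genes. Limma called Col12a1 alone of them there, at a log2 of -3.92, with a background of 0.0366% called. Its signal in C57BL/6 day 3 was 24.8, below the filter. Dcn followed Col1a1 across the arrays with r = 0.926, Ogn with 0.799, Lum with 0.759, Bgn with 0.713, Fmod with 0.678 and Prelp with 0.643.

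**Figure D5:**
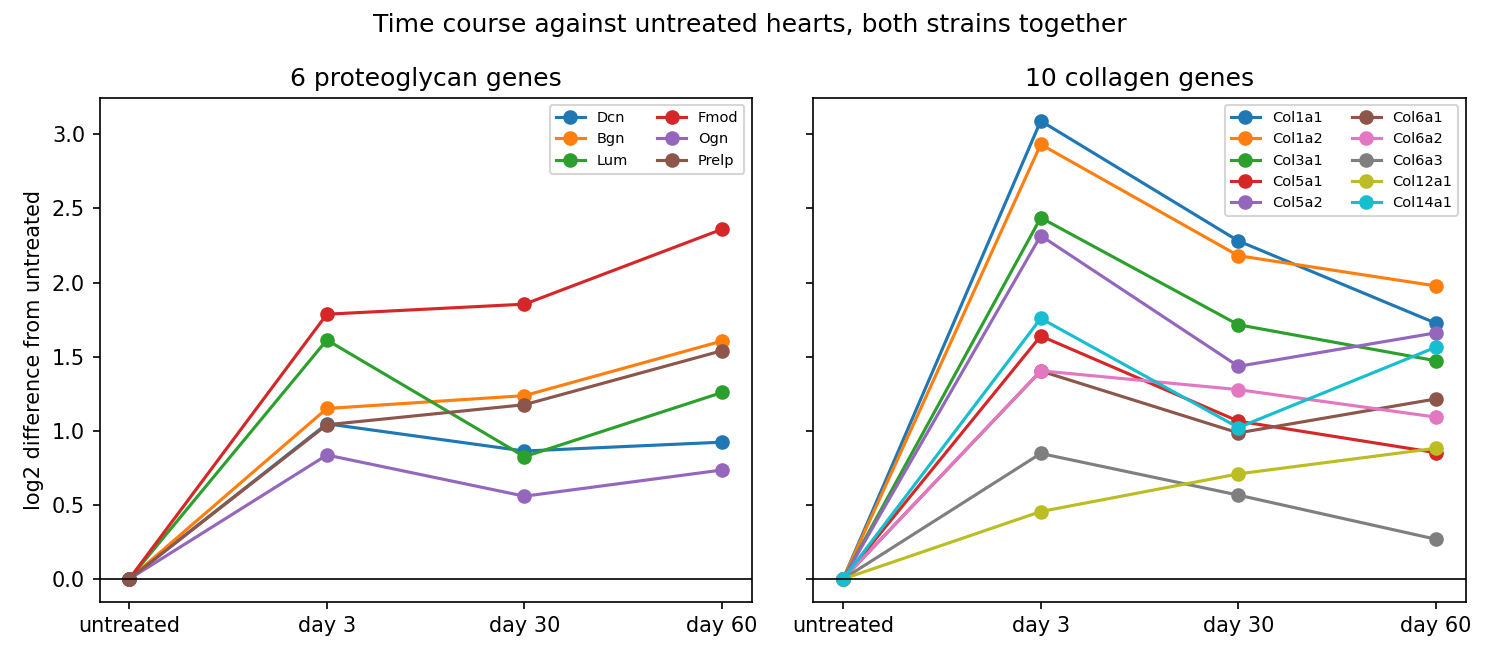
Log2 difference from untreated hearts (vertical axis) by time point, both strains together, for the 6 proteoglycan genes (left) and 10 collagen genes (right), 1 line per gene. Collagen values are highest on day 3 for 9 of 10 genes, while Fmod, Bgn and Prelp are highest on day 60.

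Other genes of the SLRP system were read from lists chosen with earlier results of these data known. Of 11 further SLRP genes 5 are on the array with a symbol of their own and 1 passed the filter: Aspn, asporin, which stood at a log2 of 0.92 in ligated hearts (SE 0.41, adjusted p = 0.488 in limma). Its signal was 185 untreated, 834.5 on day 3, 299.9 on day 30 and 411 on day 60 in MRL/MpJ hearts, and 144.5, 154, 194 and 426 at the same times in C57BL/6 hearts. The other 4, Chad, Epyc, Kera and Omd, gave signals of 2.8 to 135.5 in any array. Of 10 TGF-beta ligand, receptor and latent binding protein genes that passed the filter, 9 lay above untreated and 0 were called in limma, with a median of 0.57; Ltbp2 stood at 2.04, Tgfb3 at 1.28, Tgfb2 at 1.0 and Ltbp3 at 0.86.

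Enzymes that build the glycosaminoglycan chains showed smaller differences in ligated hearts. Of 24 listed, 10 passed the filter, 7 lay above untreated and limma called 0, with a median log2 of 0.16; Chpf2 stood at 0.61, and Ugdh, which makes the sugar donor UDP-glucuronate, at 0.59. Of 8 measured genes for proteases that cut SLRPs and their helpers, 6 lay above untreated and 0 were called, with a median of 0.66. Mmp2, a gelatinase gene, stood at 1.46 (adjusted p = 0.0847 in limma) and Pcolce, the enhancer of procollagen C-proteinase, at 0.92. Of 9 receptor genes 7 lay above untreated and 0 were called (median 0.28), with Lrp1, the endocytic receptor of decorin, at 1.09 and Tlr2, a receptor of free biglycan, at 0.75. Of 5 genes for large hyaluronan-binding proteoglycans and their partners 3 lay above untreated and 0 were called (median 0.29), with Vcan, versican, at 0.69.

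Markers of several other cell types were also higher in ligated hearts, and their part in the members' differences was not tested. All 10 fibroblast markers lay above untreated in the ligated hearts, with a median log2 of 0.76. Limma called 2 of them, both risen, where 0.195% of all genes were called. These were Vim (log2 1.58, adjusted p = 0.0425 in limma) and Col1a1, already named among the collagens. The summed signal of the 10 markers was 11693.5 to 24824 in ligated hearts and 4409.6 and 4821 in untreated hearts. The 8 macrophage markers summed to 6003 to 8638.5 in ligated hearts and 3370 and 4988 in untreated hearts; 7 passed the filter, all above untreated, and 0 were called. Of 7 tendon and cartilage markers 3 passed the filter, Comp at 3.09, Thbs4 at 2.54 and Tnmd at 0.45, with 0 called, and their sum was 638 to 3949.8 in ligated hearts and 354 and 412 in untreated hearts. Col2a1, the defining collagen of cartilage, had at most 129, and Chad at most 64.1. The 8 endothelial markers summed to 3683 to 4335 in ligated hearts and 4313 and 4991.5 in untreated hearts, and the 6 atrial markers to 10336 to 52639 in ligated hearts and 4919.5 and 7550.5 in untreated hearts, with 0 called in either list. Nppa made up most of the atrial sum in every ligated array, with 28354.5 in MRL/MpJ day 3. Myl4, Myl7 and Sln lay below their own strain's untreated array in MRL/MpJ day 3 and C57BL/6 day 60. They lay above it in the other ligated arrays. Of the epicardial and adipocyte lists 1 and 2 genes passed the filter (Upk3b at 0.88, Adipoq at 2.32 and Fabp4 at 0.09), again with 0 called, and no marker of any list had a signal of 0.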

How the data were processed

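Left ventricular RNA of 8 groups, 1 array each, was read from the deposited table of signal intensities. The authors made these intensity values with MAS5, per the submitters' processing notes; their scaling target is not given in the sources used here. Detection calls were not used here. Probe sets were named from the platform's annotation table: 20380 had 1 symbol, 691 several and 1555 none. Where a gene had several probe sets, the one with the brightest mean on the log2 scale stood for it. The offset, 28.6, is the 20th percentile of all values, and a gene was kept if 2 or more of its 8 signals reached 121, the median over all arrays. No further normalization was applied.

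Models were fitted with limma 3.58.1 (R 4.3.3; lmFit, contrasts.fit and eBayes), with Benjamini-Hochberg adjustment over 8195 genes. With 1 array per group, the error of the additive model of strain and time point comes from the strain-by-time residuals (3 residual degrees of freedom; 2 for the strain by ligation term and 1 for the added late term). These p-values measure the spread between these arrays, not between animals, and all comparisons against untreated share the same 2 untreated arrays. The number of arrays limits the precision. The procedure was tested on simulated data. Members and gene lists were chosen with earlier results of these data known; the text names all members, list genes past the test (at most 4), otherwise the up to 4 with the largest change in ligated against untreated hearts, and the genes most alike by r. Alternatives changed the offset, filter, normalization, spread estimate, probe set choice and arrays used.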

Additional observations from a re-analysis of the deposited data

Results flagged for a closer look

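On the brightest probe set of 3 of the 6 genes both late arrays lay below day 3 in MRL/MpJ and above it in C57BL/6; this held on 1 of 6 probe sets for Fmod, 1 of 3 for Bgn and 1 of 2 for Ogn. The difference between the strains in the late minus day 3 change was a log2 of -2.41 for Fmod, -1.55 for Bgn and -0.94 for Ogn on the brightest probe set. It was negative on their other probe sets too. None of the 3 genes passed limma's test of that difference (adjusted p = 0.271, 0.796 and 0.999). The Fmod difference passed with an intensity trend (adjusted p = 0.00805) and with the larger offset (adjusted p = 0.0197), over a range of adjusted p from 0.00805 to 0.825 in 9 alternatives. All of this rests on 1 day 3 array per strain, and the cause was not tested.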

How the results depend on the processing

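All 408 values of the 6 genes against untreated hearts (days 3, 30 and 60 and ligated) stayed above 0 under every alternative tried, and 0 member values that passed the test changed sign. Over all 7 planned comparisons, 10 of 702 member values under alternatives passed limma's threshold. They were Lum on day 3 (adjusted p = 0.0277 with an intensity trend and 0.0396 with the offset equal to the median of all values, range 0.0277 to 0.999), Lum on day 60 (0.0440 with the trend), Lum in ligated hearts (0.0188 and 0.0300), Lum between strains (0.0228 and 0.0263, range 0.0228 to 0.379), and Fmod on day 60 without either day 3 array (0.0428) and in ligated hearts without C57BL/6 day 3 (log2 2.39, adjusted p = 0.0201). With the mean of all probe sets Bgn in ligated hearts stood at 2.07 in place of 1.33. The log2 values for days 30 and 60 against day 3 changed sign without C57BL/6 day 3 for Bgn (-0.53), Fmod (-0.83) and Prelp (-0.17), and without MRL/MpJ day 3 for Dcn (0.10) and Ogn (0.19). Without C57BL/6 day 30 they did for Bgn (-0.01) and Fmod (-0.08). Those for the strain difference changed sign without either day 3 array for Bgn (-0.30) and Ogn (-0.09), and without either day 30 array for Prelp (0.12). The strain by ligation values changed sign with the mean of all probe sets for Fmod (-0.23) and Ogn (0.09), without either day 3 array for Fmod (-0.31) and without either day 30 array for Ogn (0.03).

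Counts of genes called by limma depended more on the settings. For day 3, day 30, day 60, ligated and strain they were 0, 1, 3, 16 and 18 as reported, 12, 7, 44, 76 and 39 with the larger offset, 14, 6, 24, 43 and 28 when dim genes were filtered by their mean, and 26, 24, 75, 104 and 43 with an intensity trend. With no offset there were 1 on day 60, 1 in ligated hearts and 7 for strain, and with no filter 0 on day 30, 0 on day 60, 1 in ligated hearts and 8 for strain. Quantile normalization left 1 in ligated hearts, and median centring gave 6 on day 60, 10 in ligated hearts and 11 for strain (4 higher and 7 lower in MRL/MpJ, against 4 and 14 as reported); centring moved the median of all genes in the late strain term to 0.13, against -0.07. The mean of all probe sets gave 4 on day 3 and 10 for strain, and fitting all probe sets gave 1 on day 3 and 32 for strain. Leaving out 1 array in turn gave 0 on day 3, 0 to 186 on day 30, 0 to 30 on day 60, 0 to 68 in ligated hearts and 7 to 14 for strain; the 186 arose without MRL/MpJ day 30. The strain by ligation term could not be fitted without an untreated array. No paired analysis was possible because the labels carry no replicate numbers; time point and strain are already terms of the model.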
